A study of Mus musculus with 4 samples.

Results

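Mesothelial cells covering the mouse common bile duct were described in 4 single-cell RNA libraries. The cells were chosen by their own UMI counts: a cell was taken as mesothelial when it had at least 500 detected genes, at most 25% of its UMIs from mitochondrial genes, at most 3 UMIs of the epithelial gene Epcam, no UMI of the leukocyte gene Ptprc, and 1 or more UMIs of at least 3 of the 6 mesothelial genes Msln, Upk3b, Upk1b, Lrrn4, Nkain4 and Wt1. A UMI is a unique molecular identifier, so that each UMI stands for 1 captured transcript molecule. The rule found 955 cells among 22968 barcodes, of which 19246 passed the gene and mitochondrial limits and 5537 were also low in Epcam and free of Ptprc. There were 548 mesothelial cells in the library with beta-catenin gain of function and 129, 201 and 77 in wild-type libraries 1, 2 and 3. The remaining 4582 cells of the same kind are called other stromal cells here, but they are a mixture. Gates on own markers found 825 fibroblasts, 383 endothelial and 242 smooth muscle cells among them, and most cells fell in no gate. They also hold cells with epithelial, acinar or leukocyte transcripts that passed the Epcam and Ptprc limits. Their median depth was 1958.5 UMIs in the library with gain of function and 1674, 2210 and 1774 UMIs in wild-type libraries 1, 2 and 3.

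The mesothelium is the single sheet of flat cells that lines body cavities and wraps the organs within them, the bile duct included. Mesothelial cells descend from mesoderm but carry keratins and apical microvilli, and they secrete a slippery surface coat that lets organs glide over each other. They also release complement proteins, chemokines and growth factors, and they can take on fibroblast features after injury to the serosal surface.

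The study compared ducts in which Ctnnb1, encoding the Wnt effector beta-catenin, was activated in a mosaic of cells with normal ducts. There was 1 library of genotype Prom1_BcatGOF, called GOF here, and there were 3 libraries labelled wild type (WT) as controls, all from common bile duct with no treatment. The design text mentions replicates of both conditions; 1 library with gain of function was analysed here. The labels give neither the construct nor the age, sex or strain of the mice, and they do not say whether each WT library is a mouse of its own, so a p-value here reflects the spread of these samples alone, part of which may be technical. Ducts were freed of adjoining tissue by hand, digested with dispase and a bacterial protease, and captured with droplet chemistry that counts the 3′ ends of transcripts.

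The libraries differed in depth and in how they were processed. The GOF library held 10796 barcodes and the WT libraries 6253, 3270 and 2649. Mesothelial cells summed to 9033908 UMIs in the GOF library and to 1067073, 1614482 and 440089 UMIs in the WT libraries, and their median depth was 14725.5 UMIs in GOF, against 5192, 6974 and 3259 UMIs in WT. The mitochondrial share of a mesothelial cell had a median of 2.44% in the GOF library and of 8.34%, 8.11% and 10.3% in the WT libraries. Per the file headers the GOF matrix came from a later Cell Ranger version than the WT matrices, so genotype and processing cannot be told apart in a direct comparison. Between 5 and 19 cell barcodes were shared by any 2 libraries. The GOF mesothelial cells held both Xist, at 219.6 CPM, and the Y-linked gene Ddx3y, at 45.7 CPM, whereas the WT mesothelial cells held Ddx3y at 78.7, 60.1 and 68.2 CPM and Xist at 0, 0 and 2.27 CPM. CPM, the usual depth-scaled count, is here a gene's share of the UMIs summed over the cells of 1 kind in 1 library, before any further scaling.

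Under the main rule the share of mesothelial cells in the GOF library lay within the range of the WT libraries. Of the Epcam-low, Ptprc-free cells, 20.5% were mesothelial in the GOF library (exact 95% binomial interval 19.0 to 22.1) and 16.8% (14.2 to 19.7), 21.0% (18.4 to 23.7) and 6.78% (5.39 to 8.40) in the WT libraries. The GOF share lay between the values of WT libraries 1 and 2, and WT library 3 stood apart with the lowest share. The GOF share minus the WT mean was 5.62 percentage points, against a WT mean of 14.9% with an SD of 7.30 (n = 3; exact permutation test, two-sided, p = 0.75, where 0.25 is the smallest p that 1 library against 3 allows). As a share of all filtered cells they made up 5.43% of the GOF library, against 2.83%, 8.10% and 3.66% of the WT libraries (exact permutation p = 1). These intervals cover counting error only. Stricter rules put the GOF share of Epcam-low, Ptprc-free cells above every WT share. It was 17.3% against 15.3, 15.7 and 5.11% with at least 4 rule genes, and 11.4% against 8.34, 4.49 and 1.94% with all 6. With at least 1000 detected genes per cell it was 31.3% against 30.7, 30.6 and 18.9%. It stayed within the WT range with no Epcam UMI allowed or the highest doublet scores left out. The part of the greater GOF depth was not tested.

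The 6 genes of the rule were at least 4 times higher in mesothelial cells than in other stromal cells of every library, except Wt1, as the rule requires of the cells it picks; these values describe the cells and were not tested. Msln (chr17:25748613-25754378 in mm10), which encodes the surface protein mesothelin, had 999.8 CPM in GOF mesothelial cells and 1595, 624 and 627 CPM in WT mesothelial cells, against 32.9 CPM in GOF and 12.5, 9.65 and 5.34 CPM in WT other stromal cells. Upk3b, a uroplakin of the apical membrane, had 466 CPM in GOF and 1281, 476 and 688 CPM in WT mesothelial cells, against 5.05 CPM in GOF and 7.25, 7.35 and 4.002 CPM in WT other stromal cells. Wt1, a transcription factor of the developing and adult serosa, had 391 CPM in GOF and 208, 307 and 259 CPM in WT mesothelial cells, against 103 CPM in GOF and 10.5, 43.6 and 12.9 CPM in WT other stromal cells. The sets did not overlap for any of these genes. Over all genes with at least 20 CPM in the WT mean of either set, 84 of 6999 (1.2%) were at least 4-fold higher in mesothelial cells in all 4 libraries and 259 (3.7%) at least 4-fold lower. Without regard to size, 1452 (20.7%) were higher and 1757 (25.1%) lower in all 4 libraries. The rule used the same cells, so nothing is read from these counts or from the counts by gene list that follow.

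Most mesothelial genes that the rule did not use were also higher in the chosen cells, which is given as a description. Of 18 such markers, 17 passed the level of 20 CPM. Of these, 14 were higher in mesothelial than in other stromal cells in all 4 libraries, and 7 were at least 4-fold higher in all 4. Of all genes 20.7% were higher and 1.2% at least 4-fold higher in all 4 libraries. A marker could pass 20 CPM through its mesothelial level alone, so nothing is read from these counts. The median log2 ratio of the WT means was 3.20 over these markers and 0.01 over all genes. Muc16 (chr9:18495455-18674530), the large transmembrane mucin also known as CA125, had 488 CPM in GOF and 241, 68.8 and 68.2 CPM in WT mesothelial cells, against 6.28 CPM in GOF and 0, 0 and 1.78 CPM in WT other stromal cells. Cldn15, a claudin of tight junctions, had 143 CPM in GOF and 266, 103 and 77.3 CPM in WT mesothelial cells, against 3.57 CPM in GOF and 2.63, 7.35 and 1.33 CPM in WT other stromal cells. The values of Cldn15 differed by less than 4-fold among the mesothelial sums and lay far above those of the other cells. Bnc1, a zinc-finger factor of epithelia and mesothelium, had 64.6 CPM in GOF and 100.3, 57.6 and 79.5 CPM in WT mesothelial cells, against 3.69 CPM in GOF and 0.659, 4.59 and 1.33 CPM in WT other stromal cells. In each of these genes every mesothelial value lay above every other stromal value.

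Markers were not all equally selective, and the keratin Krt18 overlapped between the sets. Slpi (chr2:164354070-164389095), which encodes a secreted inhibitor of leukocyte proteases, reached 11174 CPM in GOF and 29948, 9588 and 5733 CPM in WT mesothelial cells, against 768 CPM in GOF and 272, 1837 and 124 CPM in WT other stromal cells. Gpm6a, a membrane glycoprotein, had 822 CPM in GOF and 1346, 399.5 and 604 CPM in WT mesothelial cells, but also 317 CPM in GOF and 201, 213 and 258 CPM in WT cells gated on endothelial markers. The keratin Krt7 had 399 CPM in GOF and 532, 324 and 259 CPM in WT mesothelial cells, against 59.4 CPM in GOF and 101, 91.9 and 75.1 CPM in WT other stromal cells. Every mesothelial value of Slpi and Krt7 lay above every other stromal value. Krt18 had 704 CPM in GOF and 1010.2, 514 and 1004 CPM in WT mesothelial cells, against 606 CPM in GOF and 1206, 2013 and 2614 CPM in WT other stromal cells, where epithelial transcripts are also present. Krt18 was thus higher in mesothelial cells of the GOF library and lower in those of every WT library. Calb2, the calretinin gene used to mark human mesothelium, had no UMI in any mesothelial cell of any library.

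**Figure D1:**
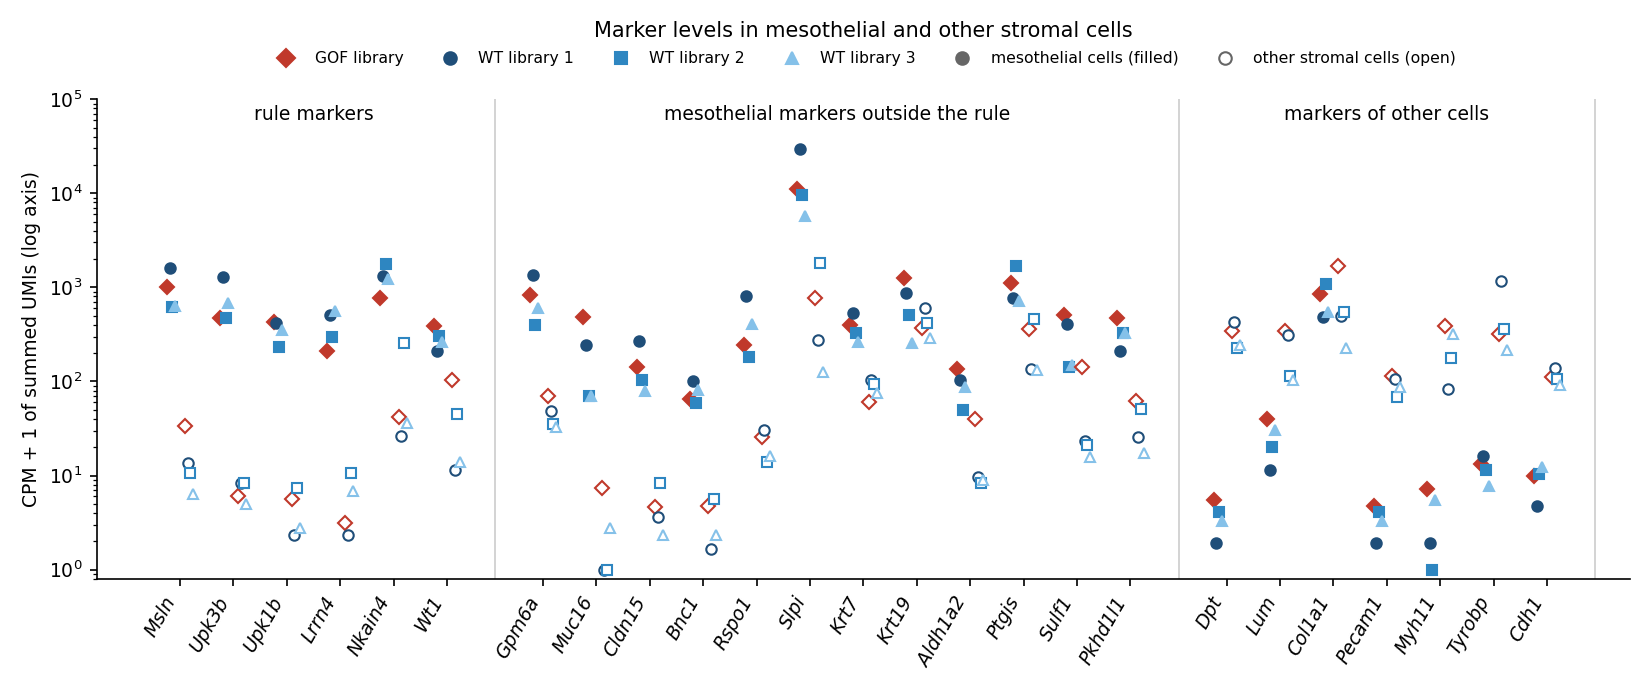
Level of the 6 rule genes, 12 mesothelial genes outside the rule and 7 genes of other cell types in mesothelial cells (filled) and other stromal cells (open), as CPM plus 1 on a log axis, 1 symbol per library. Filled symbols lie above open ones for Muc16, Cldn15, Bnc1 and Rspo1 in every library, and below them for Dpt, Pecam1 and Myh11.

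Among genes with at least 50 CPM in the mean of the WT mesothelial sums, the 10 highest ratios to other stromal WT means belonged to Muc16, Chst4, Cybrd1, Prph, Matn4, Cldn15, Crym, Bnc1, Lrp2 and Clic3. The ratio was 39.5 for Cldn15, 38.6 for Crym, 36.0 for Bnc1 and 35.0 for Lrp2, while Muc16 and Chst4 had 4 and 2 UMIs in all WT other stromal cells together. Chst4, which sulfates N-acetylglucosamine on mucin-type glycans, had 51.9 CPM in GOF and 129, 27.9 and 34.1 CPM in WT mesothelial cells, against 0.985 CPM in GOF and 1.32, 0 and 0 CPM in WT other stromal cells. Lrp2, the endocytic receptor megalin, had 82.8 CPM in GOF and 75.9, 45.8 and 134 CPM in WT mesothelial cells, against 1.60 CPM in GOF and 0, 5.97 and 1.33 CPM in WT other stromal cells. All 4 mesothelial values of Chst4 and Lrp2 exceeded all 4 other stromal values. Cybrd1, a plasma membrane ferric reductase, had 53.6 CPM in GOF and 160.3, 22.3 and 22.7 CPM in WT mesothelial cells, WT library 1 being the highest. Matn4, which encodes a matrilin of the matrix, was less selective in the GOF library, with 55.0 CPM in mesothelial and 10.2 CPM in other stromal cells.

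Promoter sequence is shown for markers that were high together in these cells. The stretch of 250 bases before the start site is shown for the 4 markers whose RefSeq window (GRCm38.p6, 250 bases before to 50 after the start) holds the letters GGAATG, the core of the motif of TEAD factors, on either strand. Capitals mark the matches that lie wholly before the start site, and each sequence reads 5′ to 3′ on the gene's own strand. Lrrn4 lies on the minus strand at chr2:132880863-132881112. Upk3b, Cldn15 and Gpm6a lie on the plus strand at chr5:136038246-136038495, chr5:136967619-136967868 and chr8:54779184-54779433.
Lrrn4: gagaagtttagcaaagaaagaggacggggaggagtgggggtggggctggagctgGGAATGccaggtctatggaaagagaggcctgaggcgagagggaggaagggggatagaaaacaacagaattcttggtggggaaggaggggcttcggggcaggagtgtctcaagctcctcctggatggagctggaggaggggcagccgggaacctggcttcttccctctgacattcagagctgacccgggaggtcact
Upk3b: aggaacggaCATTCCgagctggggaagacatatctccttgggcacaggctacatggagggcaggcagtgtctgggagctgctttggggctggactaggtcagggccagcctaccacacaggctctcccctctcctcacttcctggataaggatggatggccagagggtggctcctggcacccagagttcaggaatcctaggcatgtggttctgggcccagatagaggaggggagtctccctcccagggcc
Cldn15: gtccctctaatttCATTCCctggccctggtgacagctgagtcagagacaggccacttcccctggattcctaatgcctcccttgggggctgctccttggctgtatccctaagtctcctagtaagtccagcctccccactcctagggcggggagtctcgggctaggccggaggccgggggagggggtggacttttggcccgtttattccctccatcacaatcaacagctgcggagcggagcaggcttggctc
Gpm6a: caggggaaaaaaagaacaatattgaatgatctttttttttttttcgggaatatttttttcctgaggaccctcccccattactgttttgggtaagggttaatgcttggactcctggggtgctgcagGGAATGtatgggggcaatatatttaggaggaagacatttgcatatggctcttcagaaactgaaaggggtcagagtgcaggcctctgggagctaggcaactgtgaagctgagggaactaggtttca
A window was found for 14 of the 24 rule and non-rule markers, 15 windows in all because Gpm6a has a pair, and 4 of the 15 held GGAATG or its complement. Cldn15 held another match that runs across its start site, and its window was also the only one of the 15 with the AP-1 letters TGANTCA, which do not overlap the TEAD letters. The GATA letters AGATAA were in 1 window, that of Krt8. Of 32851 mouse promoter windows of this length, 14.66% held the TEAD letters, 7.808% the AP-1 letters and 11.18% the GATA letters, on either strand. A match is a run of letters and says nothing of binding.

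Transcripts of other cell types were low in the mesothelial cells but not absent. The 6 endothelial markers summed to 50.1 CPM in GOF and 168, 39.0 and 34.1 CPM in WT mesothelial cells, against 462 CPM in GOF and 519.7, 342 and 374 CPM in WT other stromal cells, and most of the mesothelial sum was Kdr. Smooth muscle markers summed to 339.6 CPM in GOF and 49.7, 99.1 and 93.2 CPM in WT mesothelial cells. The GOF sum of these contractile genes was the highest. Bile duct epithelial markers summed to 941 CPM in GOF and 95.6, 181 and 159 CPM in WT mesothelial cells, and Spp1 made up 858 CPM of the GOF sum. Leukocyte markers summed to 108 CPM in GOF and 69.3, 60.7 and 43.2 CPM in WT mesothelial cells, with Ptprc at 0 by the rule and the T cell gene Cd3e without a UMI. Epithelial and leukocyte sums were thus also highest in the GOF cells. Pancreatic acinar markers summed to 0.886 CPM in GOF and 92.8, 22.9 and 484 CPM in WT mesothelial cells, and to 4.68 CPM in GOF and 1641, 1008 and 16796 CPM in WT other stromal cells. The acinar sums ran the other way, lowest in the GOF library and highest in WT library 3, in both kinds of cell. Hepatocyte markers summed to 27.3 CPM in GOF and 12.2, 62.6 and 40.9 CPM in WT mesothelial cells, nearly all of it Ttr, and glial and erythroid markers to 2.44 and 5.53 CPM in GOF mesothelial cells and to at most 10.3 and 25.3 CPM in WT ones.

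Fibroblast markers were divided in mesothelial cells: the collagens were abundant, while Dpt and Lum were scarce. Of the 6 markers none was higher and 2, Dpt and Lum, were lower than in other stromal cells in all 4 libraries, against 20.7% and 25.1% of all genes, and the median log2 ratio of the WT means was 0.53. The markers summed to 5499 CPM in GOF and 3566, 8369 and 6696 CPM in WT mesothelial cells, against 8047 CPM in GOF and 3236, 3498 and 1687 CPM in WT other stromal cells. The collagens Col1a2 and Col3a1 carried that sum, while Dpt, a matrix gene of fibroblasts, stood at 4.54 CPM in GOF and 0.937, 3.10 and 2.27 CPM in WT mesothelial cells, against 342 CPM in GOF and 426, 224 and 242 CPM in WT other stromal cells. Lum, the proteoglycan lumican, had 38.6 CPM in GOF and 10.3, 19.2 and 29.5 CPM in WT mesothelial cells, against 341 CPM in GOF and 314, 114 and 101 CPM in WT other stromal cells. Pdgfra had 91.5 CPM in GOF and 26.2, 394 and 295 CPM in WT mesothelial cells, against 141 CPM in GOF and 131, 241 and 204 CPM in WT other stromal cells, and was the higher in mesothelial cells of WT libraries 2 and 3 only. Dcn, the proteoglycan decorin, had 5599.9 CPM in GOF and 8155, 9721 and 9798 CPM in WT mesothelial cells, against 9509.8 CPM in GOF and 15455, 11337 and 15103 CPM in WT fibroblast-gated cells. Decorin was thus shared by both kinds of cell, and dermatopontin (Dpt) was not. Of the 84 genes at least 4-fold above other stromal cells in all 4 libraries, 22 (26.2%) were also among the 45 that were 4-fold above fibroblast-gated cells, of which they are 48.9%. C3 and Wt1 were among the genes with a smaller margin over fibroblasts, with ratios of WT means of 2.37 and 3.19, against 8.67 and 11.5 over all other stromal cells.

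Genes of the surface coat and its microvillar anchors lay on both sides. Of 15 described genes, 8 were higher and 6 lower than in other stromal cells in all 4 libraries, against 20.7% and 25.1% of all genes. Ezr, the ezrin that ties actin to the apical membrane, had 699 CPM in GOF and 867, 653 and 411 CPM in WT mesothelial cells, against 135 CPM in GOF and 219, 210.0 and 89.8 CPM in WT other stromal cells, and its partner Slc9a3r1 had 457 CPM in GOF and 550.1, 339 and 329 CPM in WT cells against 63.2 CPM in GOF and 67.8, 77.6 and 43.1 CPM in WT other stromal cells. Both apical anchors had no overlap between the kinds of cell. Prg4, the lubricant lubricin, had 665 CPM in GOF and 202, 382 and 1225 CPM in WT mesothelial cells, against 43.1 CPM in GOF and 7.90, 126 and 56.0 CPM in WT other stromal cells. Has1, a hyaluronan synthase, had 129.6 CPM in GOF and 74.0, 83.6 and 15.9 CPM in WT mesothelial cells, WT library 3 being the lowest. The 6 lower genes were Muc1, Msn, Rdx, Cd44, Sdc1 and Aqp1. Of these the mucin gene Muc1 had 7.75 CPM in GOF and 12.2, 13.6 and 20.5 CPM in WT mesothelial cells, against 74.3 CPM in GOF and 259, 219 and 193 CPM in WT other stromal cells, and Cd44, a hyaluronan receptor, had 128 CPM in GOF and 34.7, 146 and 27.3 CPM in WT mesothelial cells, against 265 CPM in GOF and 279, 199.9 and 92.5 CPM in WT other stromal cells. Among junction genes Cdh1, the epithelial cadherin, was low, at 8.86 CPM in GOF and 3.75, 9.29 and 11.4 CPM in WT mesothelial cells, and Cdh11, a mesenchymal cadherin, had 324 CPM in GOF and 130.3, 300.4 and 286 CPM in WT mesothelial cells. Of 20 junction genes described, 5 were higher and 8 lower than in other stromal cells in all 4 libraries, and the share that was higher is near the 20.7% of all genes (25.1% of all genes were lower).

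C3, C2 and Cfb among complement genes, and Bst2 and Gbp2 among interferon-response genes, were higher in mesothelial than in other stromal cells of every library. C3 (chr17:57203970-57228136), the central complement component, had 7437 CPM in GOF and 14509.8, 10615 and 12536 CPM in WT mesothelial cells, against 1778 CPM in GOF and 1678, 1459.6 and 1207 CPM in WT other stromal cells. C2, a protease of the classical pathway, had 175 CPM in GOF and 623, 193 and 377 CPM in WT mesothelial cells, against 35.5 CPM in GOF and 38.2, 33.5 and 40.0 CPM in WT other stromal cells, and Cfb, the matching protease of the alternative pathway, had 1245 CPM in GOF and 303, 421 and 632 CPM in WT mesothelial cells, against 215 CPM in GOF and 21.1, 83.2 and 50.2 CPM in WT other stromal cells. For C3, C2 and Cfb every mesothelial value lay above every other stromal value. Of 17 complement genes described, 9 were higher and 4 lower than in other stromal cells in all 4 libraries, the lower ones including C1qa, C1qb and C1qc, which macrophages make; of all genes 20.7% were higher and 25.1% lower. Of 19 interferon-response genes described, 17 were higher in all 4 libraries, against 20.7% of all genes, and none was lower. Bst2, the antiviral membrane protein tetherin, had 1595 CPM in GOF and 1449.8, 1010.2 and 1872 CPM in WT mesothelial cells, against 243 CPM in GOF and 171, 262 and 132 CPM in WT other stromal cells. Gbp2, a guanylate-binding protein, had 334 CPM in GOF and 243, 153 and 177 CPM in WT mesothelial cells, against 35.5 CPM in GOF and 18.4, 36.3 and 15.6 CPM in WT other stromal cells.

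Mesothelial cells also held secreted signals. Rspo1, which potentiates Wnt signalling, had 245 CPM in GOF and 802, 179.6 and 409 CPM in WT mesothelial cells, against 24.9 CPM in GOF and 29.6, 12.9 and 15.1 CPM in WT other stromal cells. The non-canonical or context-dependent ligand Wnt4 had 285 CPM in GOF and 112, 262 and 157 CPM in WT mesothelial cells. Wnt5a had 68.2 CPM in GOF and 233, 50.2 and 61.4 CPM in WT mesothelial cells. Of 18 Wnt ligand and R-spondin list genes, 5 passed 20 CPM in the WT mean of either set. These 5 were higher in mesothelial cells in all 4 libraries, against 20.7% of all genes. A gene could pass through its mesothelial level alone, so nothing is read from this count. Rspo3, by contrast, had 3.54 CPM in GOF and 1.87, 3.72 and 0 CPM in WT mesothelial cells, against 40.8 CPM in GOF and 17.1, 9.19 and 11.6 CPM in WT other stromal cells. The R-spondins Rspo1 and Rspo3 thus lay on opposite sides. Igfbp6, which binds insulin-like growth factors, had 1813 CPM in GOF and 5849, 2061 and 1488 CPM in WT mesothelial cells, against 282 CPM in GOF and 522, 385 and 110.3 CPM in WT other stromal cells. Fgf9, a fibroblast growth factor made by mesothelium in embryonic lung, had 20.6 CPM in GOF and 66.5, 16.1 and 31.8 CPM in WT mesothelial cells, against 5.79 CPM in GOF and 1.32, 4.13 and 4.002 CPM in WT other stromal cells. WT library 1 was the highest for Rspo1, Wnt5a, Igfbp6 and Fgf9. Of 19 growth factor genes described, 8 were higher and 5 lower in all 4 libraries, against 20.7% and 25.1% of all genes, so that the lower share is near that of all genes. Aldh1a2, which makes retinoic acid in the embryonic serosa, had 135 CPM in GOF and 103, 48.9 and 86.3 CPM in WT mesothelial cells, against 38.9 CPM in GOF and 8.56, 7.35 and 8.003 CPM in WT other stromal cells.

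Free RNA in the droplets sets a floor under such values. Leukocytes, here cells with a Ptprc UMI and no Epcam UMI, should lack Gpm6a and Muc16. Gpm6a had a UMI in 92.3% of GOF and 93.8, 68.2 and 79.2% of WT mesothelial cells, and in 2.60% of GOF and 1.28, 1.84 and 2.78% of WT leukocytes; after each cell was thinned to 2000 UMIs the shares were 66.2% of GOF and 86.0, 39.5 and 65.7% of WT mesothelial cells, against 1.47% of GOF and 1.74, 2.88 and 1.52% of WT leukocytes. Gpm6a stood far above this background in every library. Other markers were found in more leukocytes. Before thinning, Slpi had a UMI in 65.7% of GOF and 32.8, 58.9 and 34.3% of WT leukocytes. Krt19 had a UMI in 28.5% of GOF and 14.9, 19.6 and 9.26% of WT leukocytes. How much of either was free RNA was not tested. Muc16 had a UMI in 66.4% (exact 95% binomial interval 62.3 to 70.4) of GOF mesothelial cells and in 57.4% (48.4 to 66.0), 22.4% (16.8 to 28.8) and 29.9% (19.97 to 41.4) of WT ones, and in at most 1.48% of the leukocytes of any library; thinned, the mesothelial shares were 49.2% in GOF and 30.6, 10.5 and 16.4% in WT. For C3 the thinned leukocyte shares were 37.0% in GOF and 20.9, 30.8 and 18.2% in WT cells and the unthinned ones 62.1% in GOF and 21.9, 44.8 and 25.9% in WT cells, while thinned mesothelial cells had it in 97.3% of GOF cells and in 100% of the WT cells. Myeloid cells can make C3 themselves, so its leukocyte shares are not a measure of free RNA alone. Median leukocyte depth was 6710.5 UMIs in the GOF library and 1249, 2983 and 2396 UMIs in the WT libraries. Thinning left out 30 GOF mesothelial cells and 8, 11 and 10 WT ones that had fewer than 2000 UMIs.

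The number of rule genes detected per cell ranked the cells from fibroblast-rich to marker-rich profiles. In the GOF library 86, 66, 92 and 304 mesothelial cells had 3, 4, 5 and 6 of the genes, against 12, 17, 36 and 64 in WT library 1, 51, 59, 48 and 43 in WT library 2 and 19, 18, 18 and 22 in WT library 3. A further 128 GOF cells and 9, 54 and 18 WT cells had 2 rule genes and lay just outside the rule. Pdgfra, a receptor of fibroblasts, had 325 CPM in GOF and 285, 772 and 544 CPM in WT cells with 2 rule genes, 284 CPM in GOF and 102, 698 and 719 CPM in WT cells with 3, and 40.9 CPM in GOF and 10.4, 147 and 126 CPM in WT cells with 6. Gpm6a ran the other way, at 82.6 CPM in GOF and 189.9, 43.5 and 48.0 CPM in WT cells with 2, 117 CPM in GOF and 188, 62.8 and 359 CPM in WT cells with 3, and 1118 CPM in GOF and 1465, 744 and 639 CPM in WT cells with 6. The libraries kept these directions between 3 and 6 rule genes without exception. GOF cells with 3 rule genes were also rich in transcripts of other cell types. Bile duct epithelial markers summed to 3359 CPM in GOF cells with 3 and 348 CPM with 6, against 171, 191 and 205 CPM in WT cells with 3. Smooth muscle markers summed to 999 CPM in GOF cells with 3 and 182 CPM with 6, against 51.2, 156 and 137 CPM in WT cells with 3. Dcn was nearly level across these steps, at 4954 CPM in GOF and 7966, 9323 and 9190.0 CPM in WT cells with 3 rule genes and 5933 CPM in GOF and 8261, 9449 and 10085 CPM in WT cells with 6. The steps also differ in depth: cells with 6 rule genes had a median of 16121.5 UMIs in GOF and 8041, 7878 and 11387 UMIs in WT libraries, and cells with 3 had 14662.5 UMIs in GOF and 2402.5, 7171 and 2940 UMIs in WT libraries. Its part in these differences was not tested.

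Between cells with 6 and cells with 3 rule genes, 1063 of 5840 genes (18.2%) were higher in all 4 libraries and 513 (8.78%) lower; these cells were sorted by the same counts, so the comparison is a description. Mesothelial genes outside the rule were higher in 10 and lower in none of 17. All 4 fibroblast markers with enough counts were lower, as was Acta2, the 1 smooth muscle marker with enough counts, and 6 of 18 fibrillar matrix genes were lower and 4 higher. Antigen presentation genes were higher in 10 of 16 and lower in none. H2-K1, a class I heavy chain, had 2204 CPM in GOF and 1267, 1146 and 1860.3 CPM in WT cells with 6 rule genes, against 941 CPM in GOF and 1040.5, 589.9 and 1009.7 CPM in WT cells with 3. Cd74, the invariant chain of class II complexes, had 1485 CPM in GOF and 1004, 2449 and 2305 CPM in WT cells with 6 rule genes, against 625 CPM in GOF and 1194, 186 and 1095 CPM in WT cells with 3. Cd74 was higher with 6 in the GOF library and in WT libraries 2 and 3, and lower in WT library 1. Complement genes were higher in 8 and lower in 1 of 12, and interferon-response genes higher in 9 of 19 and lower in none. Cd200, a surface glycoprotein that restrains myeloid cells, had 167 CPM in GOF and 674, 317 and 521 CPM in WT cells with 6 rule genes, against 17.3 CPM in GOF and 68.2, 52.7 and 205 CPM in WT cells with 3.

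**Figure D2:**
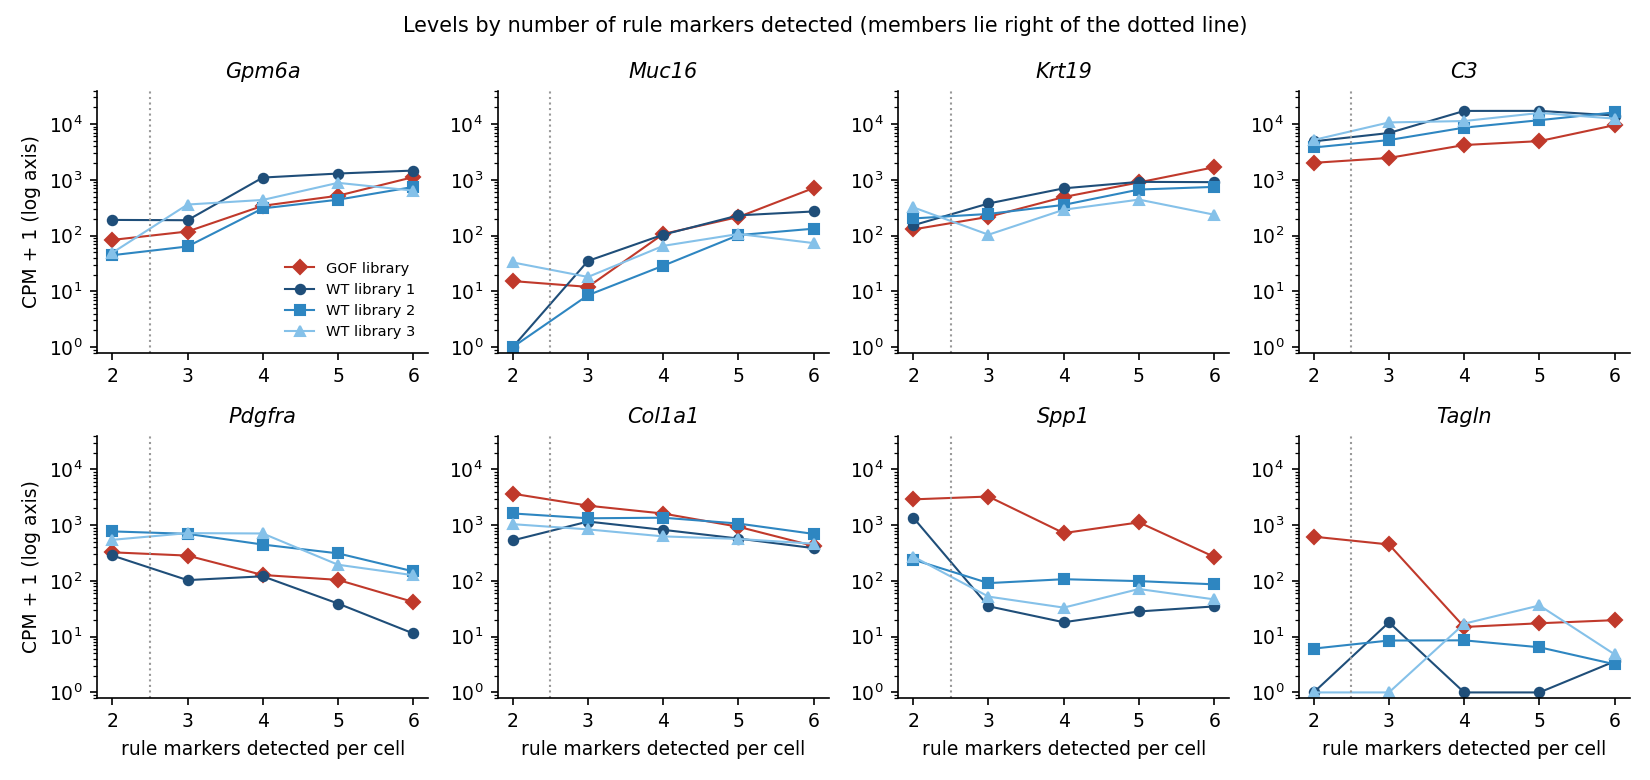
Levels of 8 genes, as CPM plus 1 on a log axis, against the number of rule genes detected per cell, from 2 (left of the dotted line, outside the rule) to 6, with 1 line per library. Gpm6a, Muc16, Krt19 and C3 lie higher and Pdgfra and Col1a1 lower at 6 than at 3 rule genes in all 4 libraries, and in the GOF library Spp1 stands at 269 and 3261 CPM at 6 and 3 rule genes.

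The WT libraries differed among themselves in inflammatory genes. Saa3, an acute phase apolipoprotein, had 10808 CPM in GOF mesothelial cells and 45.9, 4626 and 1981 CPM in WT ones. Ccl2, which draws monocytes, had 938 CPM in GOF and 13.1, 605 and 63.6 CPM in WT mesothelial cells, and Cxcl1, which draws neutrophils, had 561 CPM in GOF and 7.497, 905 and 145 CPM in WT cells. WT library 1 was lowest in all these genes and WT library 2 highest among the WT libraries. Igfbp5, another binder of insulin-like growth factors, was highest in WT library 1, with 672 CPM in GOF and 3687, 507 and 339 CPM in WT mesothelial cells. Top2a, which untangles chromosomes in cycling cells, had 52.5 CPM in GOF and 0.937, 49.6 and 2.27 CPM in WT mesothelial cells. The 3 pairs of WT mesothelial sums had a chi-square of 5.46 to 15.9 per degree of freedom, more than counting noise gives. None of Saa3, Ccl2, Cxcl1, Igfbp5 and Top2a passed the test between GOF and WT cells, with edgeR adjusted p from 0.519 (Saa3) to 0.924 (Cxcl1).

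GOF mesothelial cells were compared with WT mesothelial cells on the summed UMIs, with 1 GOF library assumed to vary like the 3 WT libraries. Of 10686 genes with enough counts among 30406 shared by both references, 369 (3.45%) rose and 66 (0.618%) fell at an edgeR adjusted p under 0.05, and 1887 had an unadjusted p under 0.05. With DESeq2 306 (2.86%) rose and 134 (1.25%) fell, and 1251 had an unadjusted p under 0.05. TMM scaling moved the median log2 change by -0.17, to -0.05. The GOF value lay above all 3 WT values in 37.4% of the genes and below all of them in 21.5%. The counts varied with the WT libraries used: without WT library 3 the counts were 184 (1.69%) and 13 (0.119%), without WT library 1 they were 637 and 196, and without WT library 2 they were 567 and 145.

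Genes that rose had long introns. The median intron content was 183 kb for genes that rose, 3.12 kb for genes that fell and 20.1 kb for all genes tested, and 63.7%, 3.03% and 12.8% of them held over 100 kb. The 2144 tested genes with at most 5 kb of intron were fitted on their own, and 29 rose and 12 fell. In the main fit 369 of 10686 genes (3.45%) rose and 66 (0.618%) fell. Whether intronic reads were counted is not stated in the sources; the GOF and WT matrices differ in Cell Ranger version, intron content moved with the rises, and the part of either in a single gene's rise was not tested. Intron content is the bases of a gene that no annotated exon covers, in the GENCODE M21 annotation of GRCm38, and it is printed beside the long genes that rose.

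**Figure D3:**
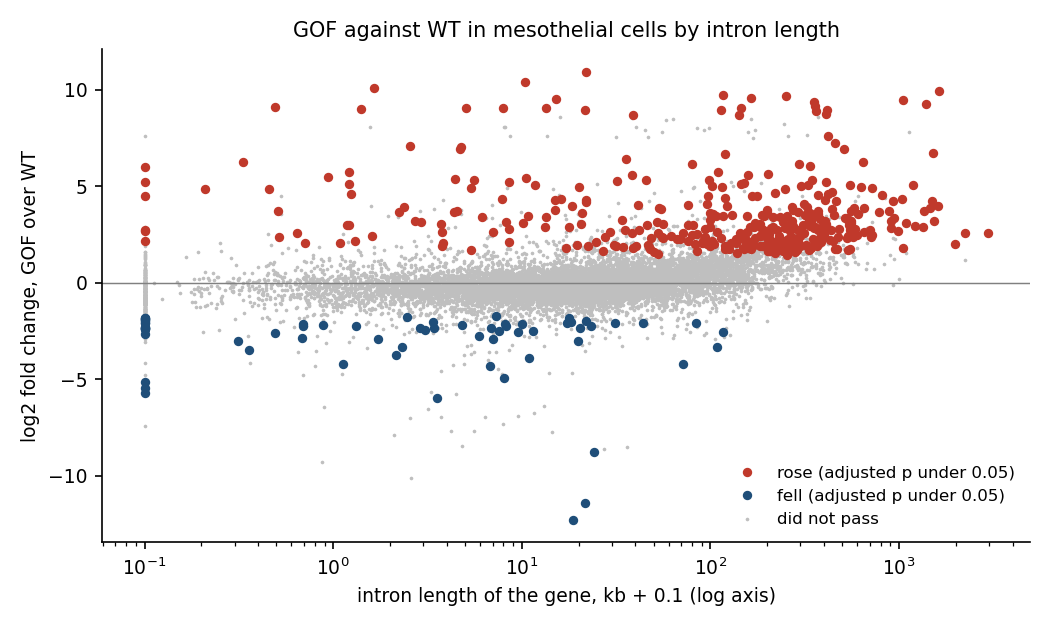
Log2 change between GOF and WT mesothelial cells (vertical) against intron content in kb plus 0.1 on a log axis (horizontal), 1 point per gene tested, in red where it rose, blue where it fell and grey where it did not pass. Most genes that rose lie to the long side, with a median of 183 kb against 20.1 kb for all genes tested and 3.12 kb for genes that fell.

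No mesothelial marker outside the rule passed the test between genotypes. Of 17 such markers none rose or fell (edgeR; 1 had an unadjusted p under 0.05, and DESeq2 called none), with a median log2 change of -0.10 against -0.05 for all genes; without TMM the markers' median was 0.07. The 6 rule genes, whose counts chose the cells, are not read here. Slpi and Gpm6a had log2 changes of -0.59 ± 0.80 and -0.08 ± 0.62 (SE), and the GOF value of both lay within the WT range. Muc16 was highest in the GOF library, at 488 CPM against 241, 68.8 and 68.2 CPM in the WT libraries, and did not pass (log2 change 1.79 ± 0.65, edgeR adjusted p = 0.208). Ctnnb1 itself had 133 CPM in GOF and 250.2, 297 and 264 CPM in WT mesothelial cells (log2 change -1.19 ± 0.39, edgeR adjusted p = 0.163), a count that tells nothing of the protein's activity. Prom1, the gene named in the genotype, was scarce in mesothelial cells, at 3.65 CPM in GOF and 6.56, 6.81 and 0 CPM in WT cells, against 59.98 CPM in GOF and 89.6, 100.2 and 119 CPM in WT other stromal cells.

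No Wnt feedback gene passed the test in the mesothelial cells. Only 3 of 10 had enough counts and none of these passed (edgeR; 2 had an unadjusted p under 0.05, DESeq2 none at either level). Axin2, the standard readout of beta-catenin signalling, had 16.2 CPM in GOF and 15.9, 24.2 and 36.4 CPM in WT mesothelial cells, and the GOF value lay within the WT range. Nkd1 had 17.5 CPM in GOF and 29.1, 25.4 and 38.6 CPM in WT mesothelial cells, the GOF value being the lowest. Znrf3, an E3 ligase that removes Wnt receptors, had 25.8 CPM in GOF and 10.3, 7.43 and 13.6 CPM in WT cells (log2 change 1.24 ± 0.44, edgeR adjusted p = 0.199), the GOF value being the highest. No Wnt ligand or R-spondin of 8 passed (edgeR and DESeq2, with none at an unadjusted p under 0.05 in either). Of 18 receptors and antagonists 1 rose, Ror1, an orphan receptor that binds Wnt5a, with 138 CPM in GOF and 11.2, 13.0 and 18.2 CPM in WT cells (log2 change 3.19 ± 0.35, edgeR adjusted p = 0.00605). The GOF value of Ror1 lay above all WT values, and its introns span 343213 bases. DESeq2 called 1 rise and 1 fall among the receptors and antagonists, whose median log2 change was -0.73. Of all genes 3.45% rose with edgeR, and 2.86% rose and 1.25% fell with DESeq2.

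Of 24 immediate early and heat shock genes, which switch on soon after a stimulus, 5 rose in GOF mesothelial cells and none fell, where 3.45% of all genes rose (17 at an unadjusted p under 0.05; DESeq2 called 8 rises), and 21 had a GOF value above all 3 WT values, where 37.4% of all genes did, with a median log2 change of 1.34. Atf3, a stress-induced repressor, had 952 CPM in GOF and 23.4, 26.0 and 11.4 CPM in WT mesothelial cells (log2 change 5.30 ± 0.43, edgeR adjusted p = 0.0028). Fosb, an AP-1 subunit, had 519.9 CPM in GOF and 26.2, 68.1 and 88.6 CPM in WT cells (log2 change 2.96 ± 0.54, edgeR adjusted p = 0.0277). Its partner Jun had 1444 CPM in GOF and 179, 293 and 407 CPM in WT cells (log2 change 2.15 ± 0.44, edgeR adjusted p = 0.0441). In these genes the GOF value lay well above the WT range. Btg2, an antiproliferative p53 target, and the nuclear receptor Nr4a1 rose as well, by 2.17 ± 0.46 and 1.79 ± 0.32 on the log2 scale (edgeR adjusted p = 0.0481 and 0.027). Fos itself had 1729 CPM in GOF and 75.0, 309 and 420.4 CPM in WT cells and did not pass (edgeR adjusted p = 0.109). Tissue digestion is known to induce such genes, and its part in the result was not tested.

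Atf3 was also high in GOF cells of other kinds. It had 2649 CPM in GOF and 8.23, 15.2 and 17.8 CPM in WT epithelial cells, and 325 CPM in GOF and 42.8, 49.5 and 38.1 CPM in WT leukocytes. Jun had 1180.3 CPM in GOF and 359.6, 652 and 748 CPM in WT other stromal cells. Whether the GOF effect differed between mesothelial and other stromal cells was tested as an interaction, which gave 0.97 ± 0.42 (SE) for Atf3 and 1.499 ± 0.31 for Jun on the log2 scale and passed for neither (edgeR adjusted p = 0.563 and 0.0958). Without WT library 3 Atf3 kept its call (edgeR adjusted p = 0.0187), while the other 4 did not, with edgeR adjusted p = 0.061 for Fosb, 0.0723 for Jun, 0.158 for Btg2 and 0.09 for Nr4a1. Restricted to cells with all 6 rule genes, a setting chosen after seeing the data, 14 of 23 genes of this list rose, where 6.56% of all genes did.

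**Figure D4:**
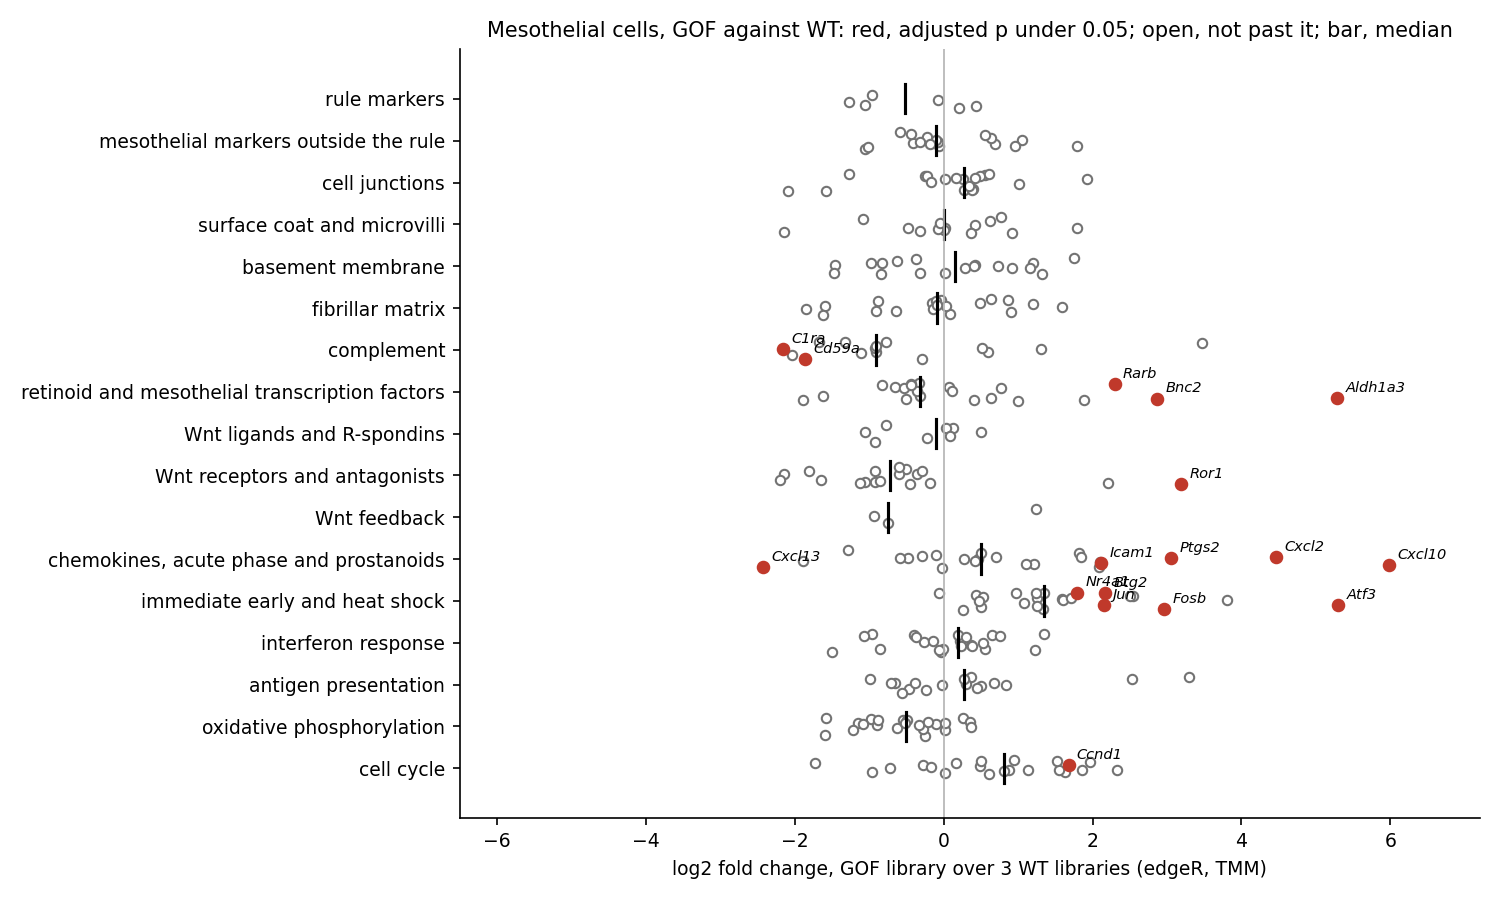
Log2 change of each gene between GOF and WT mesothelial cells, 1 row of points per gene list, with genes past an edgeR adjusted p of 0.05 in red and named, the others open, and a bar at each median. The immediate early and heat shock list lies to the right, with a median of 1.34, while mesothelial markers outside the rule centre near 0 and complement genes to the left, with a median of -0.91.

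Chemokine and adhesion genes moved in both directions. Of 23 chemokine, acute phase and prostanoid genes 4 rose and 1 fell (8 at an unadjusted p under 0.05), and DESeq2 gave the same counts. Of all genes 3.45% rose and 0.618% fell with edgeR. Cxcl10, an interferon-induced chemokine that draws T cells, had 376 CPM in GOF and 11.2, 1.86 and 2.27 CPM in WT mesothelial cells (log2 change 5.99 ± 0.63, edgeR adjusted p = 0.00564). Icam1, the leukocyte adhesion ligand, had 213 CPM in GOF and 42.2, 47.1 and 40.9 CPM in WT cells (log2 change 2.12 ± 0.31, edgeR adjusted p = 0.0147). The GOF value of both lay above all WT values, which were close together for Icam1. Cxcl2, a neutrophil chemokine, had 84.2 CPM in GOF and 0, 6.19 and 2.27 CPM in WT cells (log2 change 4.46 ± 0.73, edgeR adjusted p = 0.0205). The WT values of Cxcl2 rest on few UMIs. Ptgs2, the inducible prostaglandin synthase COX-2, had 128 CPM in GOF and 6.56, 24.2 and 4.54 CPM in WT cells (log2 change 3.05 ± 0.62, edgeR adjusted p = 0.0417). Cxcl13, which draws B cells, fell to 131 CPM in GOF cells, against 539, 849 and 504 CPM in WT cells (log2 change -2.43 ± 0.52, edgeR adjusted p = 0.0472).

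Of these calls Cxcl10 alone held without WT library 3 (edgeR adjusted p = 0.0277); the others gave 0.0664 for Icam1, 0.0686 for Cxcl2, 0.102 for Ptgs2 and 0.0962 for Cxcl13. Cxcl13 also lost its call with at least 4 rule genes per cell (0.0587), with at least 1000 detected genes per cell (0.0688) and in cells with all 6 rule genes, where its change was -0.40 (edgeR adjusted p = 0.86). Of 23 tested genes of the interferon-response list none was called by edgeR or DESeq2, with a median log2 change of 0.19. At an unadjusted p under 0.05 there were 3 with edgeR and 1 with DESeq2. Cxcl10, which rose, and Ifi202b, which fell, are interferon-induced genes outside this list. Of 17 antigen presentation genes none passed with edgeR (2 at an unadjusted p under 0.05), and DESeq2 called 1.

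**Figure D5:**
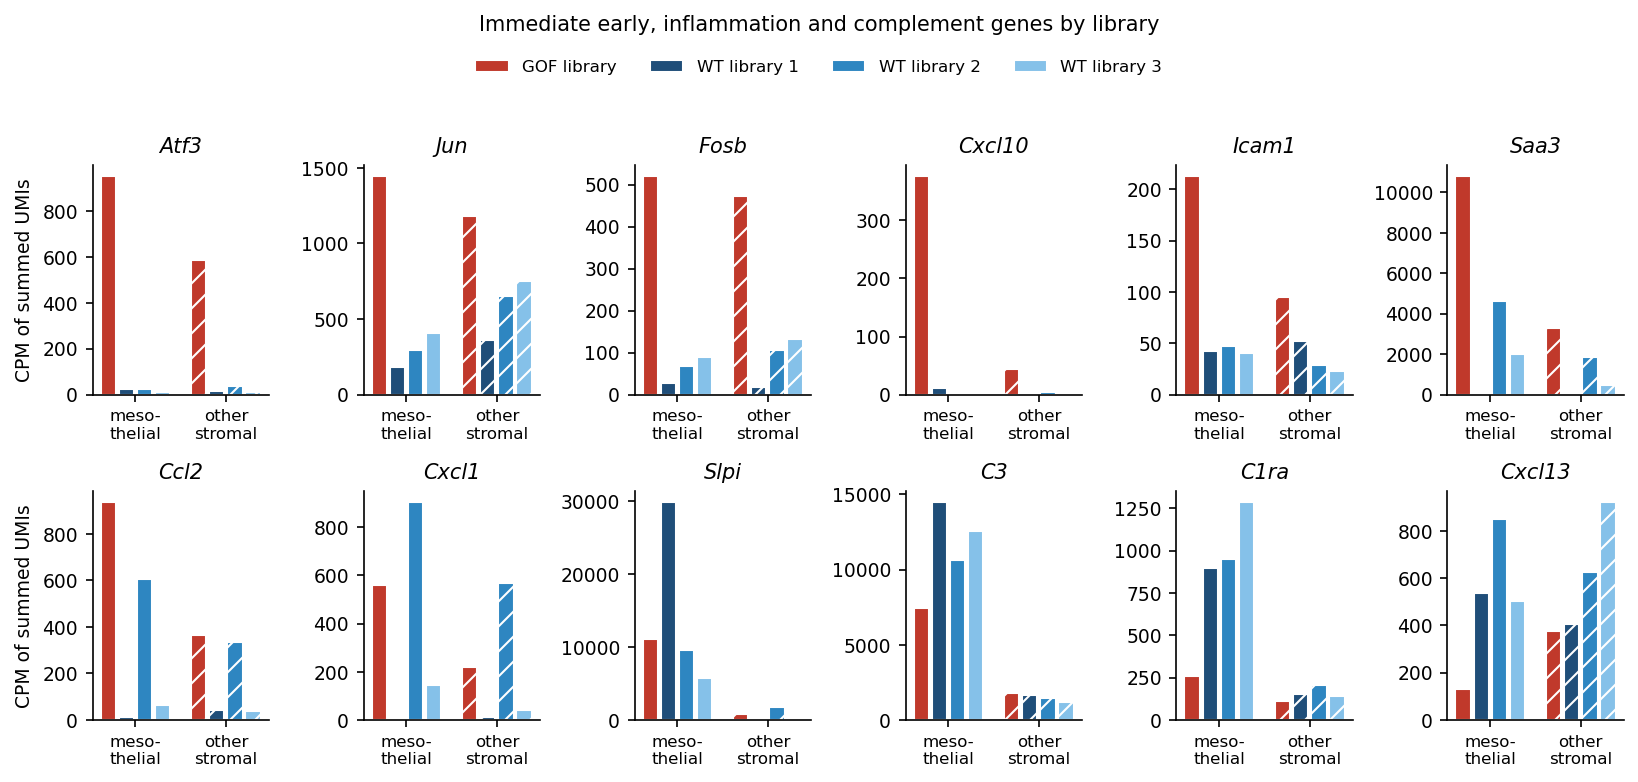
Bars give the CPM of 12 stress, inflammation and complement genes in mesothelial cells (plain) and other stromal cells (hatched), on a linear axis from 0 of its own for each gene, with the GOF library left of the 3 WT libraries. Atf3 reaches 952 CPM and Cxcl10 376 CPM in GOF mesothelial cells, above all WT bars, while C1ra and Cxcl13 are lowest in the GOF library among the mesothelial bars.

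Among complement genes C1ra and Cd59a fell in GOF mesothelial cells. Of 15 tested 2 fell and none rose, where 0.618% of all genes fell, and 8 had a GOF value below all 3 WT values, where 21.5% of all genes did, with a median log2 change of -0.91. C1ra, a protease of the classical pathway, had 259.8 CPM in GOF and 898, 950.1 and 1288 CPM in WT cells (log2 change -2.16 ± 0.43, edgeR adjusted p = 0.037). Cd59a, which shields cells from the membrane attack complex, had 13.5 CPM in GOF and 44.0, 37.8 and 52.3 CPM in WT cells (log2 change -1.86 ± 0.39, edgeR adjusted p = 0.0471). Both GOF values lay below the WT range, and neither call held without WT library 3 (edgeR adjusted p = 0.123 for C1ra and 0.136 for Cd59a). C3 had 7437 CPM in GOF and 14509.8, 10615 and 12536 CPM in WT cells and did not pass (log2 change -0.91 ± 0.31, edgeR adjusted p = 0.175). DESeq2 called 4 falls in this list, and Cd59a missed the threshold without TMM (edgeR adjusted p = 0.0574).

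Matrix and junction genes gave no edgeR call. None of 18 basement membrane genes passed (7 at an unadjusted p under 0.05; DESeq2 called 1 fall), none of 19 fibrillar matrix genes (5; DESeq2 none), none of 15 surface coat genes (2; DESeq2 none) and none of 19 junction genes (3; DESeq2 called 1 rise and 1 fall). Sparc, a collagen-binding protein of the basement membrane, had 3713 CPM in GOF and 1451, 2509 and 1270.2 CPM in WT cells, highest in GOF, and did not pass (edgeR adjusted p = 0.347). Of 20 growth factor genes none passed (1 at an unadjusted p under 0.05, and none with DESeq2 at either level). Of 19 genes of TGF-beta signalling and mesenchymal transition 2 rose in edgeR (7 at an unadjusted p under 0.05), where 3.45% of all genes rose. The 2 were Zeb1, a repressor of epithelial genes, and Tagln, an actin-binding protein of smooth muscle. Zeb1 had 108 CPM in GOF and 27.2, 11.8 and 22.7 CPM in WT cells (log2 change 2.28 ± 0.43, edgeR adjusted p = 0.0306; 0.09 without WT library 3), and its introns span 173342 bases. Tagln had 78.6 CPM in GOF and 2.81, 5.57 and 9.09 CPM in WT cells (log2 change 3.73 ± 0.46, edgeR adjusted p = 0.0094), but with at least 4 rule genes per cell the change was 1.76 (edgeR adjusted p = 0.228) and in cells with all 6 it was 2.62 (edgeR adjusted p = 0.157). Smooth muscle markers were themselves highest in the GOF mesothelial cells, at 339.6 CPM against 49.7, 99.1 and 93.2 CPM in WT cells, and their part in this was not tested.

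Among mesothelial transcription factors and retinoid genes 3 of 21 rose, where 3.45% of all genes did: Bnc2, Rarb and Aldh1a3. Bnc2, a zinc-finger relative of Bnc1, had 319.9 CPM in GOF and 49.7, 31.6 and 36.4 CPM in WT mesothelial cells (log2 change 2.87 ± 0.35, edgeR adjusted p = 0.00873), with introns of 392007 bases. Bnc1 had 64.6 CPM in GOF and 100.3, 57.6 and 79.5 CPM in WT cells and did not pass (edgeR adjusted p = 0.632). Rarb, a retinoic acid receptor, had 29.7 CPM in GOF and 4.69, 4.34 and 9.09 CPM in WT cells (log2 change 2.30 ± 0.49, edgeR adjusted p = 0.0477), with introns of 383053 bases. Aldh1a3, a retinaldehyde dehydrogenase, had 15.4 CPM in GOF and 0, 0.619 and 0 CPM in WT cells, a ratio of pooled counts of 48.0 (95% counting interval 8.48 to 1911) that rests on 1 WT UMI (edgeR adjusted p = 0.0448). DESeq2 did not call Rarb or Aldh1a3 (DESeq2 adjusted p = 0.21 and 0.131), and without WT library 3 they gave an edgeR adjusted p of 0.0772 and 0.108. Rarb also missed the threshold with at least 4 rule genes per cell (0.0643), in cells with all 6 (0.185) and with no Epcam UMI allowed (0.0915), and Aldh1a3 with no Epcam UMI allowed (0.0944).

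Of the remaining lists, 1 of 17 YAP targets rose, Cyr61, a matricellular protein, with 236 CPM in GOF and 30.9, 56.4 and 68.2 CPM in WT cells (log2 change 2.05 ± 0.42, edgeR adjusted p = 0.0441; 0.0883 without WT library 3). Of 21 cell cycle genes 1 rose, Ccnd1, cyclin D1, with 108 CPM in GOF and 34.7, 32.2 and 20.5 CPM in WT cells (log2 change 1.68 ± 0.36, edgeR adjusted p = 0.0484). DESeq2 gave Ccnd1 an adjusted p of 0.0675, and edgeR gave 0.136 without WT library 3 and 0.0546 without the highest doublet scores. With edgeR 3.45% of all genes rose, and the single rises among YAP targets and cell cycle genes are near that share. None of 22 oxidative phosphorylation genes passed with edgeR (7 at an unadjusted p under 0.05), and DESeq2 called 2 falls. Of these 22, 13 lay below all WT values, where 21.5% of all genes did. Of 14 glutathione genes Gstp2 rose and Gstp1 fell, near-identical transferases whose reads the 2 references could split in different ways. Gstp1 had 45.6 CPM and Gstp2 48.2 CPM in GOF cells, while Gstp2 had 1 UMI in all WT cells together. The sum of both was 93.8 CPM in GOF and 299.9, 755 and 1249.7 CPM in WT cells, so the separate calls are uncertain and the summed level was lowest in the GOF library. Spp1, osteopontin, had 858 CPM in GOF and 31.9, 94.8 and 47.7 CPM in WT mesothelial cells (log2 change 3.68 ± 0.54, edgeR adjusted p = 0.0141; 0.0626 without WT library 3). Within the GOF library it had 3261 CPM in cells with 3 rule genes and 269 CPM in cells with 6, and among cells with 6 the change was 2.16 (edgeR adjusted p = 0.00287). Epithelial cells held 4363 CPM of Spp1 in the GOF library and 1934, 2904 and 1644 CPM in the WT libraries, and the part of free or captured epithelial RNA was not tested.

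The 10 largest rises among genes with at least 20 CPM had no UMI or 1 in the WT mesothelial cells. Lsmem1, a small single-pass membrane protein, had 82.6 CPM in GOF cells and no WT UMI, at least 85.9-fold higher against a floor of 3 counts over the pooled WT cells. On the same floor Cd7, an immunoglobulin-family receptor of T cells, was at least 48.6-fold higher, Csmd1 at least 42.7-fold, Gpc6 at least 31.0-fold, Chsy3 at least 29.4-fold, Kcnip1 at least 25.1-fold, Nudt8 at least 23.8-fold, Tex14 at least 23.04-fold and Hgs at least 22.9-fold. Wdr17 had 329 CPM in GOF and 0.937, 0 and 0 CPM in WT cells, a ratio of pooled counts of 1026 (95% counting interval 184 to 40536) on 1 WT UMI. Csmd1, Gpc6, Kcnip1, Chsy3 and Wdr17 have introns of 1624020, 1044805, 357614, 353371 and 251559 bases, whereas Cd7 has 1539. Most of these genes had few or no UMIs in WT other stromal cells too, where Lsmem1 had 0, 0.459 and 0 CPM against 31.5 CPM in GOF ones. Without WT library 3 Nudt8, Tex14 and Hgs no longer passed, with edgeR adjusted p = 0.054, 0.0573 and 0.0573.

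The largest falls were led by genes without a single GOF UMI. Ifi202b, an interferon-inducible DNA-binding protein, had 0 CPM in GOF and 149, 222 and 205 CPM in WT mesothelial cells, at least 586-fold lower, and 0 CPM in GOF against 47.4, 62.5 and 28.0 CPM in WT other stromal cells. Gbp2b, a guanylate-binding protein, had 0 CPM in GOF and 133, 81.1 and 105 CPM in WT mesothelial cells, at least 308-fold lower. Ptp4a1, a tyrosine phosphatase, had 0.775 CPM in GOF and 45.9, 47.7 and 45.4 CPM in WT cells, and Amd2, an intronless copy in polyamine synthesis, 0.443 CPM in GOF and 17.8, 18.6 and 38.6 CPM in WT cells. Both genes were as scarce in other stromal cells of the GOF library, at 0.616 CPM for Ptp4a1 and 0.369 CPM for Amd2, and not in those of the WT libraries, at 114, 91.9 and 64.5 CPM and 11.9, 36.3 and 34.7 CPM. Chtf8, Usp50, Spink4 and Coro1b fell by 4.33, 4.22, 3.89 and 3.32 on the log2 scale (edgeR adjusted p = 0.0103, 0.00551, 0.0123 and 0.0103). Spink4, a protease inhibitor of mucous epithelia, had 311 CPM in GOF and 5961, 6092 and 3413 CPM in WT other stromal cells, many times its mesothelial level. Enpp2, autotaxin, which makes lysophosphatidic acid, had 34.0 CPM in GOF and 201, 462 and 257 CPM in WT mesothelial cells (log2 change -3.35 ± 0.65, edgeR adjusted p = 0.0361; 0.0843 without WT library 3). Cpb1, an acinar digestive enzyme, had no UMI in GOF and 12.2, 7.43 and 38.6 CPM in WT mesothelial cells (at least 40.5-fold lower; edgeR adjusted p = 0.0295, and 0.0857 without WT library 3). All 6 acinar markers lay below all WT values, where 21.5% of all genes did, and DESeq2 called 6 falls, where it called 1.25% of all genes. In other stromal cells Cpb1 had 0.493 CPM in GOF and 581, 278 and 3137 CPM in WT libraries, and the part of free acinar RNA was not tested. Lyz2, a lysozyme of myeloid cells, rose in mesothelial cells, at 61.5 CPM in GOF and 6.56, 12.4 and 4.54 CPM in WT cells (edgeR adjusted p = 0.0252; 0.0697 without WT library 3), against 1695 CPM in GOF and 759, 584 and 462 CPM in WT other stromal cells.

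Few genes had a GOF effect in mesothelial cells that differed by test from the effect in other stromal cells. That difference was the interaction of genotype and kind of cell, fitted with a term for each library, so that a shift common to both kinds of cell drops out. Of 13342 genes 18 (0.135%) had a more positive and 14 (0.105%) a more negative GOF effect in mesothelial cells (1135 at an unadjusted p under 0.05). Without TMM the counts were 10 and 14, and with DESeq2 13 and 13. Among the list genes Spp1 and Tagln were more positive, at 3.71 ± 0.36 and 3.42 ± 0.39 (SE) on the log2 scale (edgeR adjusted p = 0.00102 and 0.00228), as was Dsg2, a desmosomal cadherin, at 2.25 ± 0.37 (edgeR adjusted p = 0.0285). Dsg2 had 209.9 CPM in GOF and 37.5, 35.3 and 84.1 CPM in WT mesothelial cells, against 64.3 CPM in GOF and 48.1, 60.2 and 78.3 CPM in WT other stromal cells. In Dsg2 the GOF mesothelial value stood above every other value. Cdh2, the N-cadherin gene, Col14a1, a fibril-associated collagen, and Nkd1 were more negative, at -3.35, -2.10 and -2.75 (edgeR adjusted p = 0.00834, 0.0285 and 0.0285). Nkd1, a target of beta-catenin, had 17.5 CPM in GOF and 29.1, 25.4 and 38.6 CPM in WT mesothelial cells but 56.4 CPM in GOF and 10.5, 16.1 and 10.7 CPM in WT other stromal cells, where it was highest in the GOF library. No gene of the immediate early, interferon, complement or mesothelial marker lists was called in this test by edgeR. By rank, Cd7, Ighg2c, Gstp2, Ccl5 and Tm4sf5 were the largest positive and Ins2, Ins1, Sorcs1, Gsto2 and Fmod the largest negative differences.

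The interaction calls changed with the cells used. Against fibroblast-gated cells alone, a setting chosen after seeing the data, edgeR called no gene of 10439 in either direction (452 at an unadjusted p under 0.05). Without WT library 3 it called 0 more positive and 1 more negative gene (742 at an unadjusted p under 0.05). With no Epcam UMI allowed the calls of Spp1, Dsg2, Nkd1 and Col14a1 were lost (edgeR adjusted p = 0.128, 0.767, 0.189 and 0.334), and the difference was 0.97 for Dsg2 and 2.05 for Spp1. With at least 4 rule genes per cell those of Tagln, Dsg2 and Nkd1 were lost (0.23, 0.0505 and 0.0701), and the difference for Tagln was 1.43. Dsg2 also missed the threshold without TMM (0.117), and Nkd1 and Col14a1 with at least 1000 detected genes per cell (0.0698 and 0.0579). Other stromal cells differ between libraries in the cell types they hold: Ins2, the insulin gene, had 1775 CPM in GOF and 86.3, 22.1 and 2.22 CPM in WT other stromal cells, and 3.32 CPM in GOF and 42.2, 16.7 and 0 CPM in WT mesothelial cells.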

How the data were processed

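Cells from mouse common bile duct were profiled with droplet 3′ libraries, 1 GOF and 3 WT. The authors deposited UMI counts per gene and barcode; Cell Ranger 7.1 and mm10 are named per the submitters' processing notes, while version 7.0.0 wrote the GOF matrix and 3.0.2 the WT matrices, per the file headers. Neither the gene reference release nor the counting of intronic reads is given in the sources used here. The references share 30406 gene identifiers, 1879 are listed for GOF only and 647 for WT only, and only shared genes were compared.

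Cells were kept with at least 500 genes and at most 25% mitochondrial UMIs; the mesothelial rule is given above. The members and all gene lists were chosen with earlier results of these data known. Fibroblast, endothelial and smooth muscle cells for comparison had at least 3 of 6 own markers, at most 2 of each other list and under 3 rule markers. UMIs were summed per library and kind of cell. Genes were compared between GOF and WT with edgeR 4.0.16 in R 4.3.3 (quasi-likelihood test, TMM, filterByExpr, Benjamini-Hochberg over all genes tested, 2 residual degrees of freedom), so that adjusted p-values without another tool named are edgeR's; DESeq2 1.42.0 was an alternative. The fits were run on simulated data with known fold changes. Those libraries shared the pooled WT profile of each kind of cell and the same spread for every gene. They lack the differences seen between the WT libraries here, so the run says nothing of the error rate of these calls. Mesothelial and other stromal cells were compared by description, called at 4-fold in every library among genes with at least 20 CPM. Folds against no UMI use a floor of 3 counts over the pooled group. A gene with 1 to 3 UMIs in one group has an exact counting interval.

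Doublets were kept in the main comparison; Scrublet in scanpy 1.11.5 called 283 cells in the GOF and 0, 2 and 9 in the WT libraries at its own threshold, and an alternative left out the 872 GOF and 228, 65 and 45 WT cells with the highest scores. Other alternatives were no TMM, no count filter, each WT library left out, genes with at most 5 kb of intron, at least 4 rule genes, no Epcam UMI, at least 1000 genes per cell, cells thinned to 2000 UMIs, fibroblast-gated comparison cells and cells with all 6 rule genes. Intron content came from GENCODE M21, which matched 30329 of the shared genes. Genes were named by rank (the 10 largest ratios, rises and falls, and 5 each way for the interaction; predicted, mitochondrial, ribosomal, haemoglobin and sex-linked genes left out) and from the lists, where those past the threshold are named. Other list genes were picked as examples, some after their values were seen.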

Additional observations from a re-analysis of the deposited data

Results flagged for a closer look

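The GOF effect in mesothelial cells differed from that in other stromal cells by an interaction test (edgeR, Benjamini-Hochberg over 13342 genes) in 18 genes with a more positive and 14 with a more negative effect, and 16 of them are named here. Among list genes Spp1 (3.71 on the log2 scale), Tagln (3.42) and Dsg2 (2.25) were more positive, and Cdh2 (-3.35), Nkd1 (-2.75) and Col14a1 (-2.10) more negative in mesothelial cells. By rank, Cd7 (13.17), Ighg2c (12.05), Gstp2 (9.97), Ccl5 (5.37) and Tm4sf5 (4.38) had the largest positive and Ins2 (-8.12), Ins1 (-8.11), Sorcs1 (-5.83), Gsto2 (-5.32) and Fmod (-4.81) the largest negative fitted differences. Fitted values of genes without a UMI in a group depend on the prior count and are no bounds. Cd7 had 46.7 CPM in GOF mesothelial cells and no UMI in WT ones, against 1.11 CPM in GOF and 15.1, 3.68 and 1.33 CPM in WT other stromal cells. Ighg2c, an antibody gene, had 1.66 CPM in GOF and 0, 0 and 0 CPM in WT mesothelial cells. Ccl5 had 3.98 CPM in GOF and 1.87, 1.24 and 2.27 CPM in WT mesothelial cells, against 9.85 CPM in GOF and 268, 116 and 32.9 CPM in WT other stromal cells. Fmod, a collagen-binding proteoglycan, had 12.6 CPM in GOF and 62.8, 13.0 and 70.4 CPM in WT mesothelial cells, against 9.73 CPM in GOF and 1.98, 0.919 and 0.445 CPM in WT other stromal cells. Cdh2 had 44.3 CPM in GOF and 10.3, 84.2 and 40.9 CPM in WT mesothelial cells, against 84.7 CPM in GOF and 3.29, 15.2 and 4.002 CPM in WT other stromal cells. Without WT library 3, Ins2 kept its call among the 16 and the other 15 did not.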

How the results depend on the processing

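With 1 GOF library the spread comes from the 3 WT libraries, and WT library 3 is the shallowest, with 77 mesothelial cells. Genotype cannot be told apart from Cell Ranger version. No paired analysis was possible because the groups share 1 replicate number, the GOF library being alone.

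For GOF against WT, 369 genes rose and 66 fell. Leaving out each WT library gave 184 to 637 rises and 13 to 196 falls. DESeq2 gave 306 and 134, no TMM 494 and 59, no low-count filter 705 and 141, and genes with at most 5 kb of intron 29 and 12 (fewer genes tested). Cells with all 6 rule genes, chosen after seeing the data, gave 556 and 152; the cause was not tested. The other settings kept both counts within 1.5 times. Of 44 named genes none reversed, and 23 lost their call without WT library 3. The limit of 5 kb of intron left 18 of them tested, and 7 of these lost their call. Those were Nudt8, Gstp1, Cxcl13, Ptgs2, Jun, Btg2 and Cyr61. At most 3 did under any other setting.

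For the interaction, 18 and 14 genes were called. Leaving out WT libraries gave 0 to 159 and 1 to 201. No TMM gave 10 and 14, no filter 91 and 81, the intron limit 7 and 2, no Epcam UMI 6 and 4, and at least 1000 genes 13 and 8. Fibroblast-gated comparison cells, chosen after seeing the data, gave 0 and 0. Ighg2c reversed to -1.002 with DESeq2 and -1.25 without WT library 1, and Ins2 and Ins1 reversed to 1.48 and 1.07 against fibroblast-gated cells.

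Between mesothelial and other stromal cells, the 84 genes at least 4-fold higher and 259 lower became 45 and 105 against fibroblast-gated cells, and 86 to 108 and 279 to 436 without a WT library. The share difference of 5.62 points ran between 0.37 (cells thinned to 2000 UMIs) and 8.68 (without WT library 2). After thinning, the Epcam and Ptprc limits were read on the thinned counts, which let more cells pass them. The cells so counted went from 2676 to 4467 in GOF, and from 767, 958 and 1136 to 1645, 1257 and 783 in WT. The 0.37 is thus a difference between shares of another set of cells.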
